A study of Mus musculus with 6 samples.

Results

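Cytosolic ribosomal protein genes encode the proteins of the ribosome that translates nuclear messages. They were taken here as the genes whose platform symbol starts with Rpl or Rps and a digit, together with Rplp0, Rplp1, Rplp2 and Rpsa, without pseudogene symbols and without the Rps6k kinases. Only probe sets that the platform annotation gives to a single gene were used, and of several such probe sets of a gene the one with the highest mean. This gave 50 of the 18193 genes measured on the array. Of them 43 are core subunits of the ribosome, 22 of the large and 21 of the small subunit. The other 7 carry such a symbol without being a core subunit: Rps27l, Rpl22l1, Rpl7l1, Rpl3l, Rpl39l and Rps4l are named as relatives of a subunit, and Rps19bp1 is a protein that binds one. Core subunits without a one-gene probe set, such as Rpl3, Rpl5 and Rplp1, were not analysed here.

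The ribosome is built in the nucleolus, where ribosomal proteins join ribosomal RNA in roughly equal numbers, and surplus protein is degraded. Ribosomal protein messages are short and abundant, and most begin with a run of pyrimidines, the 5′ terminal oligopyrimidine tract, through which the kinase mTOR controls their translation. Their genes have promoters rich in binding elements for ETS-family factors such as GABP and for YY1, and Myc raises ribosome production. Free Rpl5 and Rpl11 bind Mdm2, the ubiquitin ligase of p53, when ribosome assembly fails.

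The RNA came from retinas of BALBc mice, an albino strain, and all mice of both groups had first spent 1 week in the dark. The dark adapted group, the control, had no further exposure. The light damaged group was then exposed to 6000 lux of white fluorescent light for 6 h, and retinas were taken 24 h after the damage. Each group had 3 arrays of total RNA. The mice's age and sex, and whether an array held 1 animal or a pool, are not stated in the sources used. The comparison asks which retinal RNAs differ between the groups. Values are log2 expression from RMA, a method that summarises the probes of each probe set, so a change of 1 is a doubling. Precision is limited by the number of arrays. No label says that replicates are separate animals, so a p-value covers the spread between these 6 arrays and no more, and part of that spread may be technical.

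Array medians lay between 6.15 and 6.18, upper quartiles between 7.41 and 7.67, and the values below which 95% of probe sets fall between 9.31 in dark adapted replicate 3 and 9.82 in light damaged replicate 1. The labelled tissue was checked against retinal markers: rod genes were bright on every array, with a list mean between 11.004 and 12.08. Lens genes were bright too, between 10.03 and 11.70 as a list mean, and in both groups replicate 3 had the highest lens mean. Arrays with the same replicate number deviated together from their group means, so the test was also run with replicate numbers as a block, and its value is given where it changes the call of a gene named below.

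After light damage 5 of the 50 genes rose: Rplp0, Rps27l, Rps26, Rpsa and Rpl35, by 1.67-fold to 2.30-fold. None of the 50 fell and 45 did not pass the test (limma, Benjamini-Hochberg adjusted p under 0.05 over all 18193 genes). The 5 are 10% of the members, while 1.74% of all genes tested were called higher and 0.269% lower. At an unadjusted p under 0.05 limma gave 33 members higher and 0 lower, against 8.58% and 2.42% of all genes. With the replicate number as a block 24 members rose and 0 fell, where 6.73% of all genes were higher and 2.13% lower.

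The changes of the members leaned to 1 side whether or not they passed. The change, the light damaged minus the dark adapted mean, was positive in 48 of the 50 genes and had a median of 0.43 on the log2 scale. Over all genes 57% of the changes were positive and the median was 0.03. The middle of the members' distribution, from its lower to its upper quartile, ran from 0.29 to 0.55. In 36 of the 50 genes all 3 light damaged arrays lay above all 3 dark adapted ones, which held for 11.9% of all genes. The reverse held for 0 members and 3.75% of all genes. In 45 members the light damaged array was the higher one in each of the 3 same-numbered pairs (27.7% of all genes), and in 1 it was the lower one in each (16.8%). The median over the 50 genes on each array was 11.20, 11.12 and 10.82 in dark adapted replicates 1, 2 and 3, and 11.55, 11.59 and 11.48 in light damaged replicates 1, 2 and 3. The groups did not overlap in this median, and dark adapted replicate 3 was the lowest array.

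The largest difference was that of Rplp0, the P0 protein of the stalk that recruits elongation factors to the large subunit, whose message is also a common reference in quantitative PCR. It read 10.20, 10.03 and 10.33 in dark adapted replicates 1, 2 and 3 and 11.38, 11.26 and 11.53 in light damaged ones. The lowest light damaged array lay well above the highest dark adapted one. The mean rose from 10.19 ± 0.15 to 11.39 ± 0.13 (SD, n = 3 per group), a change of 1.20 ± 0.14 (SE) or 2.30-fold (limma adjusted p = 0.00441). The 3 pairs gave 1.18, 1.24 and 1.19.

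Rps27l, which encodes a relative of the small-subunit protein Rps27 and is known as a target gene of p53, followed. Its values were 8.27, 8.33 and 8.11 in dark adapted and 9.24, 9.43 and 9.29 in light damaged retinas, again without overlap. The mean rose from 8.24 ± 0.11 to 9.32 ± 0.10 (SD, n = 3 per group), a change of 1.08 ± 0.13 (SE) or 2.12-fold (limma adjusted p = 0.00481). The other probe sets of Rps27l gave changes of 1.25 and 1.28.

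The remaining 3 calls were smaller. Rps26, a small-subunit protein near the channel through which the message leaves, read 10.80, 10.77 and 10.46 in dark adapted and 11.47, 11.48 and 11.44 in light damaged retinas. It rose by 0.79 ± 0.14 (SE, n = 3 per group; 1.73-fold, limma adjusted p = 0.0279). The light damaged arrays lay close together, and among the dark adapted ones replicate 3 was the lowest. Rpsa, a small-subunit protein also known as the laminin receptor precursor, read 11.30, 11.21 and 11.16 and then 11.91, 11.95 and 12.09. It rose by 0.76 ± 0.12 (SE, n = 3 per group; 1.69-fold, limma adjusted p = 0.0208). A dim second probe set of Rpsa, with a mean of 4.56, gave 0.23. Over the mean of its probe sets Rpsa gave 0.49 and lost the call (limma adjusted p = 0.130). Rpl35, a large-subunit protein beside the exit of the peptide tunnel, read 10.71, 10.79 and 10.71 and then 11.31, 11.58 and 11.53. It rose by 0.74 ± 0.13 (SE, n = 3 per group; 1.67-fold, limma adjusted p = 0.0279). Of its 5 other probe sets, 4 gave 0.86, 0.86, 0.81 and 0.85, while a dim one with a mean of 5.27 gave -0.18.

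**Figure D1:**
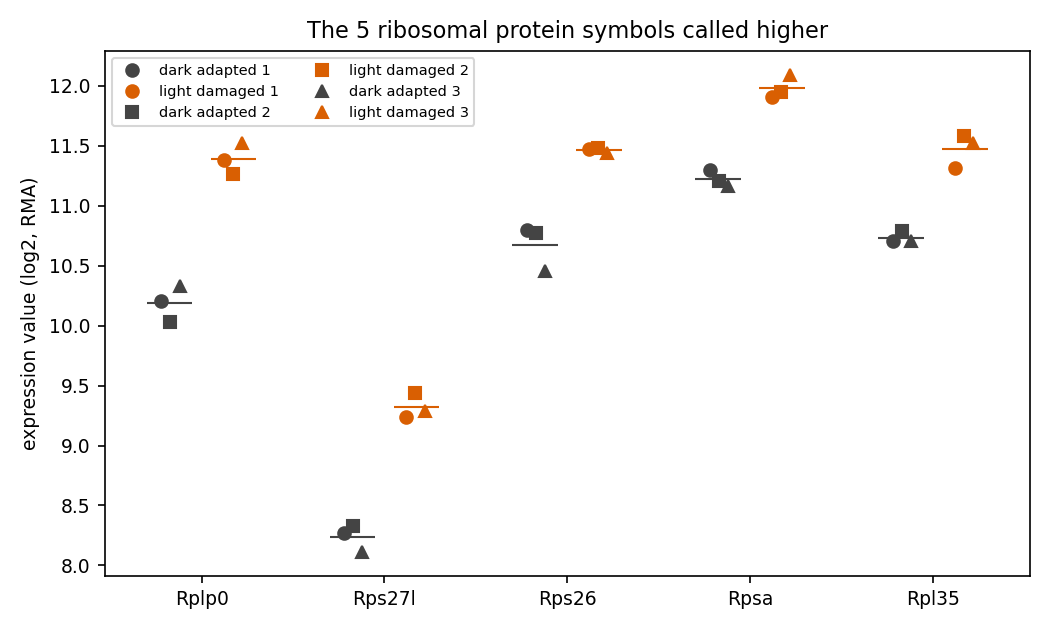
Expression values (log2, RMA) of the 5 genes that rose, with 1 point for each array (circle, square and triangle for replicates 1, 2 and 3), dark adapted in grey and light damaged in orange, and a horizontal line at each group's mean. In each gene the 3 light damaged points lie above the 3 dark adapted ones, and the gap is widest for Rplp0 (10.19 to 11.39).

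These calls were not equally stable. Rplp0 and Rps27l remained called with any 1 of the 6 arrays left out. Rps26 and Rpsa remained called without dark adapted replicate 1 or 3 only, and their adjusted p reached 0.128 without light damaged replicate 2 for Rps26 and 0.108 without light damaged replicate 3 for Rpsa. Both also lost the call without dark adapted replicate 2 (0.0917 and 0.106), and without light damaged replicate 1 (0.110 and 0.0753), and they missed it without light damaged replicate 3 for Rps26 (0.124) and 2 for Rpsa (0.0961). Rpl35 lost it with each array left out, at adjusted p between 0.0562 without dark adapted replicate 1 and 0.143 without light damaged replicate 2. With the replicate block the adjusted p of all 5 lay below 0.05, at 0.00013 for Rplp0.

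RefSeq promoter windows (assembly GRCm38.p6), from 250 bases before to 50 bases after the annotated start, were found for 44 of the 50 members and for 14368 of all genes. They were searched on both strands for the ETS-factor element CCGGAAG, for the YY1 element GCCATNTT and for the TATA box TATAAA. On the gene's own strand a run of at least 8 pyrimidines within 25 bases of the start was also searched, as a trace of the oligopyrimidine tract. The stretch from 120 bases before to 20 bases after the start is shown for the 5 genes that rose, because it lets their starts be compared. Lower case marks sequence without a match and capitals mark matches. Each is written 5′ to 3′ on the gene's strand, Rplp0 at chr5:115559347-115559486 (plus), Rps27l at chr9:66945966-66946105 (plus), Rps26 at chr10:128626487-128626626 (minus), Rpsa at chr9:120127646-120127785 (plus) and Rpl35 at chr2:39005112-39005251 (minus).
Rplp0: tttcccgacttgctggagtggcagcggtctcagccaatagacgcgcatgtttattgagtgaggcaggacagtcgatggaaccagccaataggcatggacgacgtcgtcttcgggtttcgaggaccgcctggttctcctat
Rps27l: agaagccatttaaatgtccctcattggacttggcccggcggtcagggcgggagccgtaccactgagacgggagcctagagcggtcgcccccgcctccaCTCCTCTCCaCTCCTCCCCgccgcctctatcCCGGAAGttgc
Rps26: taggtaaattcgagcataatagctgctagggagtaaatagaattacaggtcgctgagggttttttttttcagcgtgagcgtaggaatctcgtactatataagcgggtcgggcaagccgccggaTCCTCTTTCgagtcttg
Rpsa: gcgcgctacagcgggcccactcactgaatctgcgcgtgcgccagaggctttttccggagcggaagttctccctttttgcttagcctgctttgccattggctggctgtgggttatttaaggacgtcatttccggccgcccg
Rpl35: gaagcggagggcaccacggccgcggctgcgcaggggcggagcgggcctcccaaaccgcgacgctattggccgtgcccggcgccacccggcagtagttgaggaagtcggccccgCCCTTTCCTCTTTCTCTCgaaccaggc

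Of the 5, Rps26, Rpl35 and Rps27l held a pyrimidine run near the annotated start, of 18 bases in Rpl35. Rps27l also held the ETS element, 9 bases after the start, and it had 2 annotated windows, of which the upstream one is shown. The stretches of Rplp0 and Rpsa held none of the 4 patterns. Among all member promoters 21 of 44 (47.7%) held CCGGAAG, against 15.0% of all promoters of the same length. The pyrimidine run was found in 25 (56.8%, against 26.8%), GCCATNTT in 7 (15.9%, against 8.09%) and TATAAA in 6 (13.6%, against 11.5%). A match is a run of letters and not a measured binding site, and annotated starts can be off by some bases.

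Among the core subunits the large and the small subunit had alike medians. The 22 large-subunit genes had a median change of 0.44, with a range from 0.12 to 1.20, and all were positive. The 21 small-subunit genes had a median of 0.43, with a range from -0.09 to 0.79. In each subunit 2 genes rose, where 1.74% of all genes were called higher. With the replicate block 12 large-subunit and 10 small-subunit genes rose, where 6.73% of all genes did.

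In the large subunit 20 genes did not pass the test, with changes from 0.12 to 0.67 and limma adjusted p from 0.0823 to 0.866. Their standard errors lay between 0.12 and 0.23. In 14 of the 20 all light damaged arrays lay above all dark adapted ones, against 11.9% of all genes. Nearest to the threshold was Rpl7a, with 11.77, 11.65 and 11.67 in dark adapted and 12.14, 12.22 and 12.29 in light damaged retinas, a change of 0.52 ± 0.12 (SE, n = 3 per group; limma adjusted p = 0.0823, 0.0161 with the block). Rplp2, which forms the stalk on Rplp0, read 11.49, 11.28 and 11.46 and then 11.99, 11.82 and 11.80, a change of 0.46 ± 0.13 (SE, n = 3 per group; limma adjusted p = 0.158), which passed with the block (0.0261). Whether its change differs from that of Rplp0 was not tested. Rpl12, at the base of the stalk, was read by a dimmer probe set at 6.61, 5.84 and 6.27 and then 6.98, 6.68 and 7.04, a change of 0.67 ± 0.21 (SE, n = 3 per group; limma adjusted p = 0.214, 0.00962 with the block).

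Rpl11, which binds Mdm2, read 11.12, 11.06 and 10.93 and then 11.54, 11.62 and 11.36. The groups did not overlap, and the change of 0.47 ± 0.13 (SE, n = 3 per group) missed the test without the block (limma adjusted p = 0.159) and passed it with the block (0.0221). Rpl13a, which is often used as a reference gene, read 12.05, 11.94 and 11.63 and then 12.26, 12.12 and 12.14, a change of 0.30 ± 0.15 (SE, n = 3 per group; limma adjusted p = 0.533). Rpl41, whose product is the smallest ribosomal protein, read 12.21, 12.37 and 12.50 and then 12.73, 12.98 and 12.82, a change of 0.49 ± 0.14 (limma adjusted p = 0.162, 0.0249 with the block). The smallest large-subunit change was that of Rpl37, at 0.12 with overlapping groups.

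In the small subunit 19 genes did not pass, with changes from -0.09 to 0.71 and limma adjusted p from 0.0613 to 0.933. Their standard errors lay between 0.12 and 0.29. In 16 of the 19 all light damaged arrays lay above all dark adapted ones, against 11.9% of all genes. Rps10, Rps6 and Rps19 came nearest. Rps10 read 11.63, 11.42 and 11.48 and then 12.12, 12.02 and 12.18, a change of 0.60 ± 0.13 (SE, n = 3 per group; limma adjusted p = 0.0613, 0.00803 with the block). Rps19, which is needed for the maturation of the small subunit and is mutated in Diamond-Blackfan anaemia, read 10.45, 10.57 and 10.57 and then 11.001, 11.13 and 11.16, a change of 0.56 ± 0.12 (limma adjusted p = 0.0662, 0.00885 with the block).

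Rps6 is the subunit that S6 kinases phosphorylate downstream of mTOR, a modification that RNA levels do not show. Its probe set was dim, at 5.62, 5.82 and 5.82 in dark adapted and 6.40, 6.25 and 6.55 in light damaged retinas. The groups did not overlap, and the change was 0.65 ± 0.14 (SE, n = 3 per group; limma adjusted p = 0.0638, 0.0081 with the block). It was called higher when the arrays were quantile normalized again (adjusted p = 0.0342) or scaled by cyclic loess (0.0347), but a second, dimmer probe set of Rps6 gave -0.20. Rps7, which was among the 3 brightest member probe sets with Rps29 and Rpl41, read 12.20, 12.10 and 12.23 and then 12.45, 12.33 and 12.48, a change of 0.25 ± 0.12 (limma adjusted p = 0.543). Rps29, the brightest at a mean of 12.81, had a change of 0.19 ± 0.12 (limma adjusted p = 0.714).

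Some small-subunit genes had wide errors. Rps25, a protein used by some internal ribosome entry sites, read 7.43, 7.39 and 6.34 in dark adapted and 7.71, 8.02 and 7.55 in light damaged retinas. Its change of 0.71 ± 0.29 (SE, n = 3 per group) missed the test (limma adjusted p = 0.404, 0.0270 with the block), and was 0.35 without dark adapted replicate 3, its lowest array. Rps20 read 11.18, 11.15 and 10.31 and then 11.44, 11.37 and 10.88, so both arrays numbered 3 were low and the groups overlapped. Its change of 0.35 ± 0.26 was 0.068 without dark adapted replicate 3. The only core subunit with a negative change was Rps16, at -0.09 ± 0.14 (limma adjusted p = 0.933), whose probe set had a mean of 4.21, the lowest of all members and far below the median of all genes (6.88).

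The paralogues and Rps19bp1 were set beside the subunit each is named after. Rps27l rose by 1.08, while Rps27 read 7.13, 7.33 and 6.86 and then 7.44, 7.59 and 7.60, a change of 0.43 ± 0.15 (SE, n = 3 per group; limma adjusted p = 0.298). The difference between the changes of Rps27l and Rps27 was not tested. Rpl7l1, a nucleolar relative of Rpl7, read 7.75, 7.30 and 7.46 and then 8.22, 7.89 and 8.47, a change of 0.69 ± 0.19 (limma adjusted p = 0.144, 0.00965 with the block), beside 0.29 for Rpl7. Rpl22l1 read 9.86, 9.71 and 8.69 and then 10.17, 9.95 and 9.68, a change of 0.52 ± 0.30 (limma adjusted p = 0.642), beside 0.39 ± 0.15 for Rpl22 (limma adjusted p = 0.347). Both groups of Rpl22l1 were lowest in replicate 3, and without dark adapted replicate 3 its change was 0.15, beside 0.28 for Rpl22.

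Relatives known for other tissues showed little. Rpl3l, a muscle-specific form of Rpl3, had a change of 0.05 ± 0.19 at values between 4.71 and 5.31, and Rpl39l, a testis-enriched form of Rpl39, one of 0.04 ± 0.14 at values up to 4.73 (limma adjusted p = 0.976 for both). These levels are under the lower quartile of all genes, 5.60, and their folds say little. Rpl39 itself had a change of 0.23 ± 0.15 (limma adjusted p = 0.717). Rps4l was the other negative member, at -0.08 ± 0.13 (limma adjusted p = 0.931), beside 0.56 ± 0.18 for Rps4x (0.244, 0.0108 with the block). Rps19bp1, a regulator of the deacetylase SIRT1, had a change of 0.23 ± 0.14 (limma adjusted p = 0.668).

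**Figure D2:**
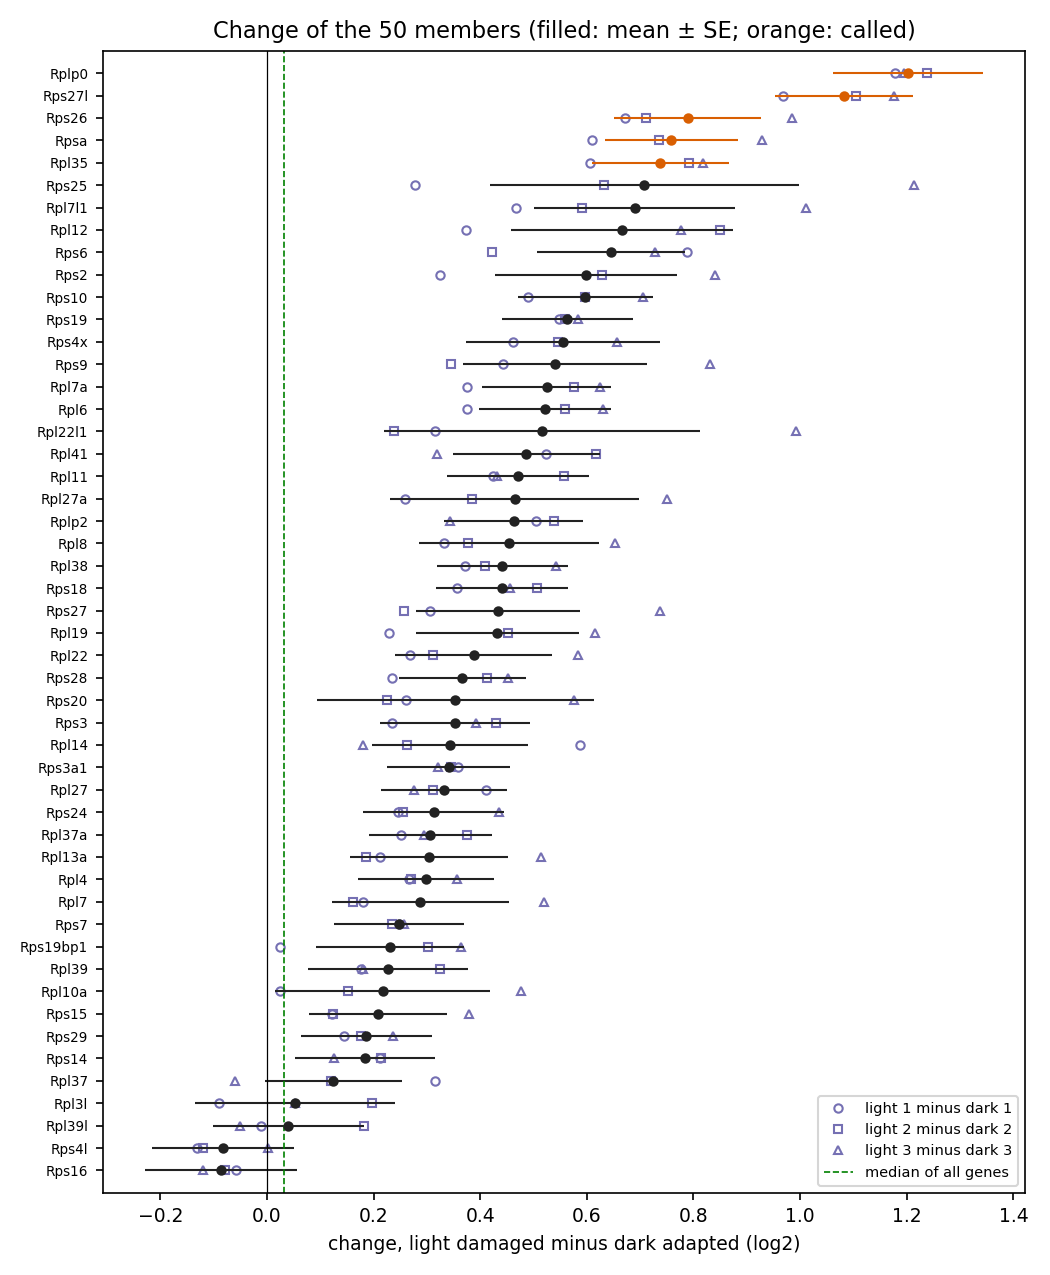
Change of each of the 50 genes, light damaged minus dark adapted (log2), as filled points with standard errors (orange for the 5 that passed the test), with the 3 same-numbered pair differences as open symbols and a dashed line at the median of all genes, 0.03. All but Rps16 and Rps4l lie to the right of 0, and the pair symbols spread most for genes such as Rps25 and Rpl22l1.

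Ribosomal protein genes have many near-identical pseudogene copies, so the probe sets were examined beyond the chosen ones. In all 106 one-gene probe sets read the 50 genes, and 24 genes had more than 1. Of the 56 probe sets not chosen, 50 had a positive change and their median was 0.32. All 36 with a mean above 7 were positive, and 14 of the 20 at or under 7. A further 110 probe sets were assigned to several genes that include a ribosomal protein symbol, and are named by no gene here: 100 of them had a positive change, with a median of 0.41 and a range from -0.25 to 1.23. Of the chosen probe sets 32 carry a suffix (_x_at, _s_at or _a_at) that marks probes shared between transcripts, of the same gene or of several. With probe sets that carry no such suffix, 27 members could be measured, 21 had a positive change and the median was 0.23. Of the 27, 2 rose, Rplp0 and Rpsa, against 1.41% of all genes. Rps27l and Rps26 had no such probe set and could not be measured there. Rpl35 turned to -0.18 (limma adjusted p = 0.790) there, since only its dim probe set was left.

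Because most members are bright, they were also set beside other genes of their level. The median member level was 11.26, against 6.88 for all genes, and 37 members lay above the upper quartile of all genes. Values of different probe sets are not amounts of RNA, so this is only a matching of brightness. The 34 core subunits above 10 had changes from 0.18 to 1.20, all positive, with a median of 0.44. In 30 of them all light damaged arrays lay above all dark adapted ones, against 11.9% of all genes of any level. This share was not counted for other genes above 10. Among genes with a mean above 11, the 32 members had a median change of 0.41, all positive, and the 246 other genes one of 0.08, with 160 (65%) positive. Of these, 3 members and 3 other genes rose, and 2 other genes fell. In the band from 11 to 12 the medians were 0.45 for 24 members and 0.13 for the other genes, and from 12 to 14 they were 0.31 for 8 members and 0.00.

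**Figure D3:**
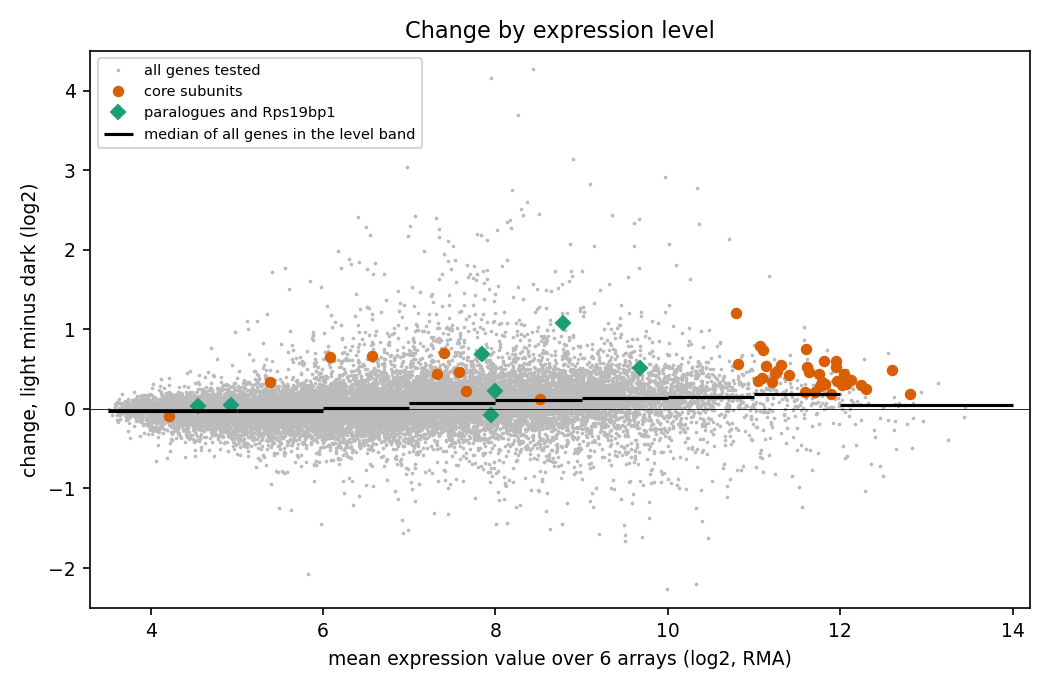
Change (light minus dark, log2) against the mean expression value over the 6 arrays, with all 18193 genes as grey dots, core subunits in orange and the paralogues with Rps19bp1 in green; black bars give the median of all genes in each level band. The bright core subunits, with means above 10, form a cloud whose median is 0.44, while the band medians of all genes stay at or below 0.18.

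The size of the common change depended on how arrays were scaled. Renewed quantile normalization lowered the members' median to 0.27 and cyclic loess lowered it to 0.23, with all-gene medians of 0.00 and -0.01 and 46 members positive in both. Under each, 4 members rose (Rplp0, Rps27l, Rps26 and Rps6), against 1.79% and 1.92% of all genes, while Rpsa and Rpl35 lost the call. Signs turned for Rps29 and Rps14 under cyclic loess (-0.04 and -0.02), and for Rpl10a and Rpl37 under quantile normalization. None of these 4 genes passed the test. Each array was also centred on 7 reference genes, which themselves had a median change of 0.19. This moved the median of all genes to -0.15 and that of the members to 0.25. Such centring subtracts the same value from every gene of an array, so the distance of 0.40 between the medians could not change. Then 0 members were called (limma; 10 at an unadjusted p under 0.05), as 0.742% of all genes were, and Rplp0 had adjusted p = 0.0522. Without both arrays numbered 3 the median was 0.35 and 0 members were called (limma; 23 at an unadjusted p under 0.05), against 0.302% of all genes.

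**Figure D4:**
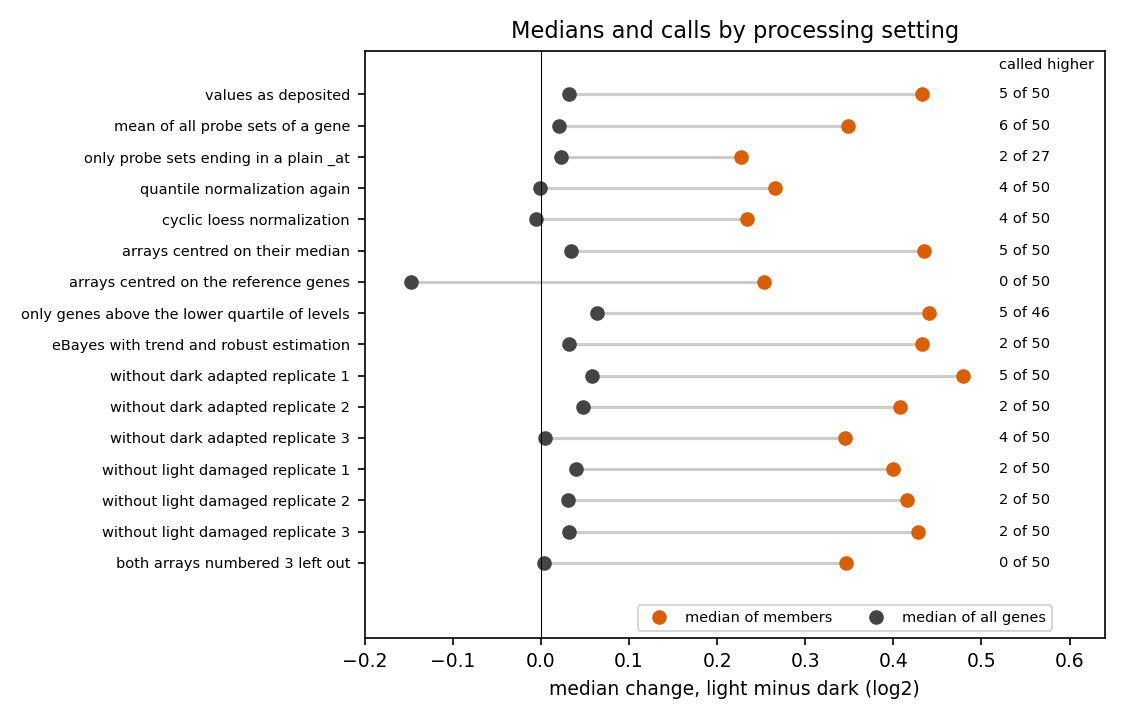
Median change (log2) of the members (orange) and of all genes (grey) under each processing setting, with the number of members called higher at the right. The orange point lies to the right of the grey one in every setting shown, at 0.43 and 0.03 for the values as deposited, and lowest at 0.23 with cyclic loess or with probe sets without a suffix. Centring on the array median or on reference genes, and eBayes with a trend and robust estimation, cannot change the distance between the points.

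Other genes of the translation machinery were described from lists. In ribosome biogenesis, the factors that process ribosomal RNA and assemble subunits, 2 of 37 genes rose, 0 fell and all 37 changes were positive, with a median of 0.37. With the replicate block 17 rose. Npm1, the nucleolar chaperone nucleophosmin, read 9.72, 9.73 and 9.77 and then 10.64, 10.70 and 10.91, a rise of 1.01 ± 0.13 (SE, n = 3 per group; 2.02-fold, limma adjusted p = 0.00631). It kept the call with any 1 array left out. Npm1 lost the call with renewed quantile normalization (limma adjusted p = 0.0568), cyclic loess (0.0564) and reference centring (0.112), and without both arrays numbered 3 (0.0757). Bop1, a large-subunit assembly factor, rose by 0.71 ± 0.13 (limma adjusted p = 0.0394) and lost the call with each array but dark adapted replicate 1 left out (adjusted p up to 0.183 without light damaged replicate 3), and over the mean of its probe sets (0.29, adjusted p = 0.348).

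Translation factors and other messages with an oligopyrimidine tract had 2 of 23 genes higher, 0 lower and a median of 0.36, with 21 positive and 8 higher with the block. Vim, the intermediate filament vimentin, which was also in the list of reactive glia, rose 3.18-fold (1.67 ± 0.16, SE, n = 3 per group; limma adjusted p = 0.00200). Eef1d, a subunit of the exchange factor of elongation factor 1, rose by 0.70 ± 0.12 (limma adjusted p = 0.0265), a call that remained without dark adapted replicate 3 only and reached adjusted p = 0.143 without light damaged replicate 2. Over the mean of its probe sets Eef1d gave 0.41 (adjusted p = 0.146), and the call was also lost with renewed quantile normalization (0.111) and cyclic loess (0.114). Of 32 initiation factors and regulators 2 rose, 0 fell and 31 were positive, with a median of 0.38 and 13 higher with the block. Eif4a1, the RNA helicase of the cap-binding complex, rose by 0.86 ± 0.13 (limma adjusted p = 0.0160), and Eif3b, a scaffold of initiation factor 3, by 0.75 ± 0.15 (0.0427). Both lost the call without dark adapted replicate 2 (0.0889 and 0.181) and without light damaged replicates 1, 2 or 3 (up to 0.0883 and 0.197), and Eif3b without dark adapted replicate 3 (0.0937). Eif4a1 also lost it with renewed quantile normalization (0.0523) and cyclic loess (0.0847).

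Upstream regulators of ribosome production were read from 3 further lists. In the mTOR and S6 kinase list 0 of 24 genes were called (limma), with 18 positive, a median of 0.15 and 3 higher with the block, among them Akt2, a kinase upstream of mTOR (0.71 ± 0.17, limma adjusted p = 0.0912, 0.00637 with the block). In the list of ribosomal stress and Myc 1 of 17 rose, 0 fell and 14 were positive, with a median of 0.24 and 2 higher with the block. The gene was Myc, a transcription factor that drives ribosome production, which read 5.39, 5.53 and 6.04 and then 6.99, 6.98 and 7.32. It rose by 1.44 ± 0.20 (SE, n = 3 per group; 2.72-fold, limma adjusted p = 0.00871) and lost the call without light damaged replicate 3 (0.0599). Of 8 factors that bind ribosomal protein promoters 0 were called (limma), 3 were positive and the median was -0.01. With the block 1 passed, Yy1 (0.50 ± 0.27, limma adjusted p = 0.0321 with and 0.612 without the block). The call of Yy1 with the block was lost after cyclic loess (0.0628), renewed quantile normalization (0.0756) and reference centring (0.117), and its change was 0.24 without dark adapted replicate 3.

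The proteins of the mitochondrial ribosome are encoded by a separate gene family. Of 76 genes 4 rose, 0 fell and 68 were positive, with a median of 0.21 and 8 higher with the block. The largest rises were those of Mrps6 and Mrps25, both of the mitochondrial small subunit, at 3.18-fold (limma adjusted p = 0.000979) and 2.29-fold (0.00409). Fau, whose product is cleaved into the cytosolic small-subunit protein Rps30 and which the symbol rule leaves out, had a change of 0.13 ± 0.12 (limma adjusted p = 0.835). Beside these list counts, 1.74% of all genes were called higher without the block and 6.73% with it, and no list was tested as a set.

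**Figure D5:**
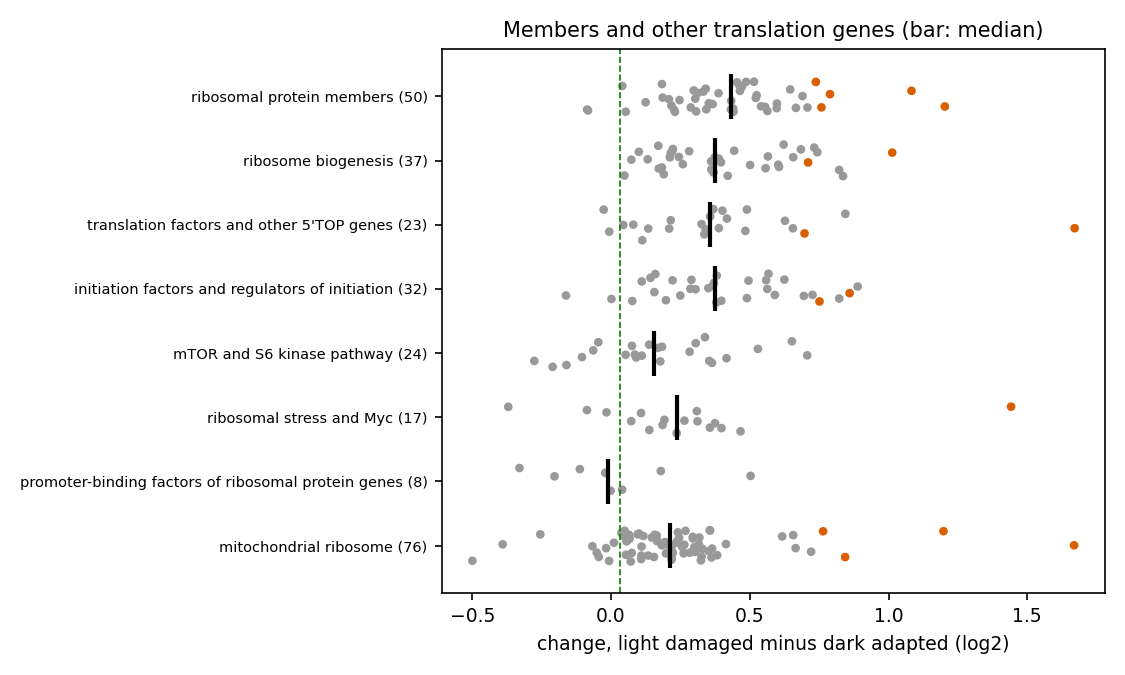
Change (light damaged minus dark adapted, log2) of each member and of each gene in 7 other lists of translation genes, with the number of genes in brackets, a black bar at each list's median, orange for genes that passed the test and a dashed line at the median of all genes. The members' median of 0.43 is the highest, biogenesis, translation factors and initiation factors lie at 0.36 to 0.38, and the promoter-binding factors at -0.01.

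Markers of retinal cell types moved in the same comparison. Of 10 rod genes 1 fell and all had negative changes, with a median of -0.65, and the list mean went from between 11.56 and 12.08 on dark adapted arrays to between 11.004 and 11.43 on light damaged ones. Of 8 cone genes 3 fell, with a median of -0.69, and the list mean went from between 8.75 and 9.20 to between 8.24 and 8.47. All 10 reactive glia genes rose, with a median of 2.14 (7.12 to 7.48, then 9.54 to 9.81). Of 12 microglia and macrophage genes 3 rose, with a median of 0.43 (5.93 to 6.06, then 6.45 to 6.59). With the block 7 rod and 4 cone genes fell, 5 microglia and macrophage genes rose and 1 fell. Their part in the change of ribosomal protein genes was not tested, and in whole retinas fewer cells of a type and less RNA per cell cannot be told apart.

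Lists of tissues around the retina, and of resting Müller cells, had overlapping list means in the groups and 0 called genes (limma; with the block 3 Müller genes rose and 3 fell, 1 pigment epithelium gene rose and 2 lens genes fell). The means ran from 9.50 to 9.95 and from 9.47 to 9.89 in the Müller glia list, from 6.52 to 7.14 and from 6.57 to 7.27 for the retinal pigment epithelium, from 10.20 to 11.70 and from 10.03 to 11.62 for the lens and from 4.95 to 5.17 and from 4.97 to 5.02 for blood cells. Dark adapted replicate 3, the highest of its group in the lens list, was the lowest of its group for 29 of the 50 members (and for 46.2% of all genes). Light damaged replicate 3, likewise the highest in the lens list, was the lowest for 21 members (33.7% of all genes). What part this had in the result was not tested. The members' median change without dark adapted replicate 3 was 0.35.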

How the data were processed

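Total RNA of whole retinas was measured on 6 arrays, 3 light damaged and 3 dark adapted, with groups taken from the titles. RMA made the deposited values, per the submitters' processing notes, in a version not given in the sources used here, and the values are on a log2 scale, as judged from their range. RMA scales arrays toward 1 distribution, so a change in total RNA would not show. The deposited arrays still differed at the bright end. The values below which 95% of probe sets fall ran from 9.31 in dark adapted replicate 3 to 9.82 in light damaged replicate 1.

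The deposited table held 45101 probe sets, of which 64 were controls, 34945 were assigned to 1 gene by the platform annotation, 932 to several and 9160 to none. RefSeq names (GRCm38.p6) were matched through the Entrez identifier for 34741 and changed 0 symbols. The probe set with the highest mean of each gene was kept, without a filter on level, which gave 18193 genes. The groups were tested with limma 3.58.1 in R 4.3.3 (lmFit, then eBayes with no trend). P-values of all genes were adjusted by Benjamini-Hochberg and called under 0.05. The scripts for this fit were tested on simulated data. With 3 arrays against 3, a permutation test of a single value could not go below p = 0.1, so none is given.

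Replicates carry the numbers 1 to 3 in the titles of each group. Over genes, deviations from the group means correlated at 0.746, 0.629 and 0.447 between same-numbered arrays, each above 0.1, and at -0.486 to 0.0292 between the rest. On this basis, which no label states, arrays with equal numbers were treated as pairs. Because the pairing was read from the same 6 arrays that were tested, p-values with the block may be too small.

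The members, the lists and the alternatives were chosen with earlier results of these data known. Named members were those past the threshold (at most 8 in each direction, or else the 4 of that direction with the smallest p), the 3 with the highest and the 3 with the lowest level, every symbol that is not a core subunit with its namesake, and Rps6, Rpl5, Rpl11, Rplp0 and Rpl13a, and for each list of translation genes up to 2 genes past the threshold or else the 1 with the smallest p. Rpl7a, Rplp2, Rpl12, Rps10, Rps20, Rps25, Rpl37 and the genes whose sign turned were named after their values were seen. Alternatives were the mean of a gene's probe sets, probe sets without a suffix, renewed quantile normalization, cyclic loess, centring on the array median or on reference genes, a level filter, eBayes with a trend and robust estimation, the replicate block, and each array left out. Those that left out both arrays numbered 3, or joined a scaling with the block, were added after seeing the data.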

Additional observations from a re-analysis of the deposited data

How the results depend on the processing

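The call count of the 50 members was 5 (1.74% of all genes higher). It ranged from 2 to 5 with 1 array left out, where 0.775% to 2.11% of all genes were higher. It was 2 without dark adapted replicate 2 and without light damaged replicates 1, 2 or 3. With probe sets that carry no suffix the count was 2 of the 27 members measurable there (1.41% of all genes higher). Rps27l and Rps26 were not among the 27. Over the mean of a gene's probe sets the count was 6 (1.81% of all genes higher). It was 2 with a trend and robust estimation (1.6%), 0 with reference centring (0.742%), 0 without both arrays numbered 3 (0.302%) and 24 with the replicate block (6.73%). With the block it was 10 after cyclic loess and 12 after renewed quantile normalization (4.40% and 4.17% of all genes higher). With block and reference centring it was 6 (2.36%). The block ended none of the 5 calls. All genes called numbered 365, and 229 with reference centring (135 higher and 94 lower, in place of 316 and 49), 1613 with the block, 1339 with block and cyclic loess, 1241 with block and quantile normalization, 928 with block and reference centring, 151 to 417 with 1 array left out and 65 without both numbered 3. Quantile normalization gave 325 higher and 162 lower and cyclic loess 349 and 185. In the lists of translation genes 11 of 218 were called, and 7 of 180 with probe sets without a suffix. The count was 3 with reference centring and 52 with the block. It was 42 with the block after either cyclic loess or quantile normalization, and 21 with block and reference centring. With 1 array left out it was 4 to 17, and 3 without both numbered 3. It was 17 without dark adapted replicate 1, and 5, 5, 5 and 4 without dark adapted replicate 2 and light damaged replicates 1, 2 and 3.

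With 1 array left out the members' median of 0.43 was 0.35 to 0.48, and the block cannot change it. It was 0.23 with probe sets without a suffix, 0.27 with quantile normalization, 0.23 with cyclic loess and 0.25 with reference centring. The large-subunit median of 0.44 was 0.29, 0.25 and 0.26 under the last 3 scalings and the small-subunit median of 0.43 was 0.26, 0.23 and 0.25, and 0.16 with probe sets without a suffix. The median of the translation lists, 0.25, was 0.14 with cyclic loess and 0.068 with reference centring, both also with the block. Of 923 values of single members over 19 alternatives, 32 lost the call with their sign kept and 37 gained it. Of the 5 genes called, 1 also lost the call with a change of sign. This was Rpl35 at -0.18 with probe sets without a suffix, where only its dim probe set was left. Among genes not called, Rps10, Rps24 and Rps20 also turned there (-0.11, -0.28 and -0.053), Rps3 over the mean of its probe sets, Rps29 and Rps14 under cyclic loess, Rpl10a and Rpl37 under quantile normalization, and Rpl37, Rpl3l and Rpl39l under reference centring (Rpl3l and Rpl39l also with some single arrays left out). The cause of the other differences was not tested. Leaving out arrays also leaves fewer to compare. Dim probe sets such as those of Rps16, Rpl3l and Rpl39l limit what can be said of these genes. Centring on the array median and a filter on level left the members' calls at 5.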
